A study of Homo sapiens with 8 samples.

Results

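The genes MBNL2, SPARCL1, FRMD4A, CACNB4, EFNA5, FBXL17 and FZD7 name the stretches of the genome that held the largest groups of newly accessible chromatin regions after SMARCB1 was switched on in G401 cells. The members are all peaks that the deposited lists place in 6 spans of hg19: chr13:97800000-98100000 (MBNL2), chr4:88340000-88500000 (SPARCL1), chr10:13650000-14400000 (FRMD4A), chr2:152650000-153000000 (CACNB4), chr5:106700000-107750000 (EFNA5 to FBXL17) and chr2:202850000-203000000 (FZD7). The spans measured 2760 kb together and held 815 of the 411408 deposited peaks. Joining peaks of different days that overlapped by at least 1 bp gave 306 regions in the spans, out of 146099 in the genome. The spans were selected on the number of neighbouring gained regions in these lists, so the number and grouping of gained regions in them are descriptions and no test was made of them.

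G401 is an established cell line of a kidney rhabdoid tumour without SMARCB1, which is part of the core of SWI/SNF chromatin remodelling complexes, and the cells studied carried a SMARCB1 that doxycycline turns on. Open chromatin was mapped by ATAC-seq, where a transposase inserts sequencing adapters into accessible DNA. Uninduced cells (day 0, labelled SMARCB1 -/-) were compared with cells given 1 µg/ml doxycycline for 1, 3 or 7 days (labelled SMARCB1 +/+), and every group shared the G401 background, the inducible construct and Tet-free serum. There were 8 samples, 2 per day. The labels do not say whether the stable line was 1 clone, whether replicates were separate cultures, or whether any cells received doxycycline without the construct, so an effect of the drug and one of SMARCB1 cannot be told apart here.

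Because each day has a single deposited peak list, days are compared without replicate error and without p-values. All but 1 of the lists carry a day in their names, and the list named otherwise was taken as day 0 because no other day was left. The lists held 80744 to 117606 peaks. The genome-wide background, taken as the background value that the peaks of a list share most often, is the measure of depth used here. It lay between 6.04 and 6.73 reads, so the lists were of similar depth. The height of a peak is given as its summit reads, recovered from the deposited values, and its scaled summit is those reads divided by the genome-wide background of the list. Ratios between days use scaled summits. Their 95% intervals are exact conditional binomial intervals, which cover counting error only and are too narrow where reads are PCR copies.

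SWI/SNF complexes use ATP to slide and evict nucleosomes, and SMARCB1 anchors the complex on the nucleosome. Loss of SMARCB1 is the defining lesion of rhabdoid tumours, and distal enhancers are the sites known to depend most on the complex. AP-1 factors, dimers of FOS and JUN proteins that the title of the series names, bind the sequence TGACTCA and are known to bring remodellers to enhancers. The 7 genes are not members of one textbook pathway. EFNA5 encodes ephrin-A5, a membrane-anchored ligand of Eph receptors that guides cells and axons, and FBXL17 encodes an F-box protein that selects substrates for an SCF ubiquitin ligase. FZD7 encodes a Frizzled receptor for Wnt ligands, and CACNB4 encodes an auxiliary beta subunit of voltage-gated calcium channels. FRMD4A encodes a FERM-domain scaffold of epithelial polarity, SPARCL1 encodes hevin, a secreted matricellular glycoprotein of the SPARC family, and MBNL2 encodes a muscleblind regulator of alternative splicing.

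In the RefSeq gene order of GRCh38.p14 the nearest protein-coding neighbours were OXGR1 and RAP2A for MBNL2, SCPPPQ1 and DSPP for SPARCL1, PRPF18 and FAM107B for FRMD4A, and CDK15 and KIAA2012 for FZD7. EFNA5 and FBXL17 are each other's neighbours, with NUDT12 beyond EFNA5 and FER beyond FBXL17. The peaks are in hg19 and no hg19 annotation was used, so no region was placed in a promoter, exon or intron, and assigning a span to a gene rests on the names of the spans alone.

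RefSeq start windows in GRCh38.p14 matched 6 of the 7 genes, with 12 windows in all. FZD7 had no entry. The 250 bases before each start were searched on both strands for TGACTCA, which reads TGAGTCA on the other strand, and for TGACGTCA, the related CRE-type site, which reads the same on both strands and overlaps neither of the other strings. MBNL2 is shown because the window of its first listed start was the only one of the 12 with a match. It held TGACTCA in both orientations, beginning 86 and 65 bases before the start, and the matches are in capitals. The window of its second listed start and that of SPARCL1, whose span held the most densely gained group, are shown for comparison.
MBNL2 first start: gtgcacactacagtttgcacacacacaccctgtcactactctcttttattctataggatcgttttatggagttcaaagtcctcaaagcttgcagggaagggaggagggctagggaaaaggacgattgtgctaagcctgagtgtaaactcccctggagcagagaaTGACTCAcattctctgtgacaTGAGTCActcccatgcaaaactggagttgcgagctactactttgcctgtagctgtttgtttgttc
MBNL2 second start: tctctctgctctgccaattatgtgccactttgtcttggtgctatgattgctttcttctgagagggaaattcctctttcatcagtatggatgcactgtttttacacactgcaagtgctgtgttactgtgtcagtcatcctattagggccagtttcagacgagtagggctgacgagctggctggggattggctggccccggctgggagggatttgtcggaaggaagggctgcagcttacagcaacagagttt
SPARCL1 start: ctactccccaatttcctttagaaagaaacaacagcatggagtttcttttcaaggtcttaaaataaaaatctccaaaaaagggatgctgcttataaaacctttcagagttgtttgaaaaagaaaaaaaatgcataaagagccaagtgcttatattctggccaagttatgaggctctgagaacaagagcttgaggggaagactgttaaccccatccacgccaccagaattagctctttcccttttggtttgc
Over all 35116 windows of the table, 4.20% held TGACTCA and 1.65% held TGACGTCA in the 250 bases before the start. A match is a string of letters and not a bound site, and no peak was placed on these windows because the builds differ. These proximal windows say nothing about the sequence under the gained regions, which was not read here.

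Across the 6 spans the number of peaks was about 2 times as high after induction. There were 115 peaks before doxycycline, and 238, 251 and 211 after 1, 3 and 7 days. The covered length was 66.3 kb at the outset and 136, 145 and 119 kb on the induced days, which is 2.05, 2.19 and 1.79 times the day 0 length. The same ratios over the genome were 1.35, 1.44 and 1.25. All 3 comparisons share the day 0 list, so they are not separate observations of a gain. The spans were chosen for their gained regions, so nothing is read from the excess over the genome.

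**Figure D1:**
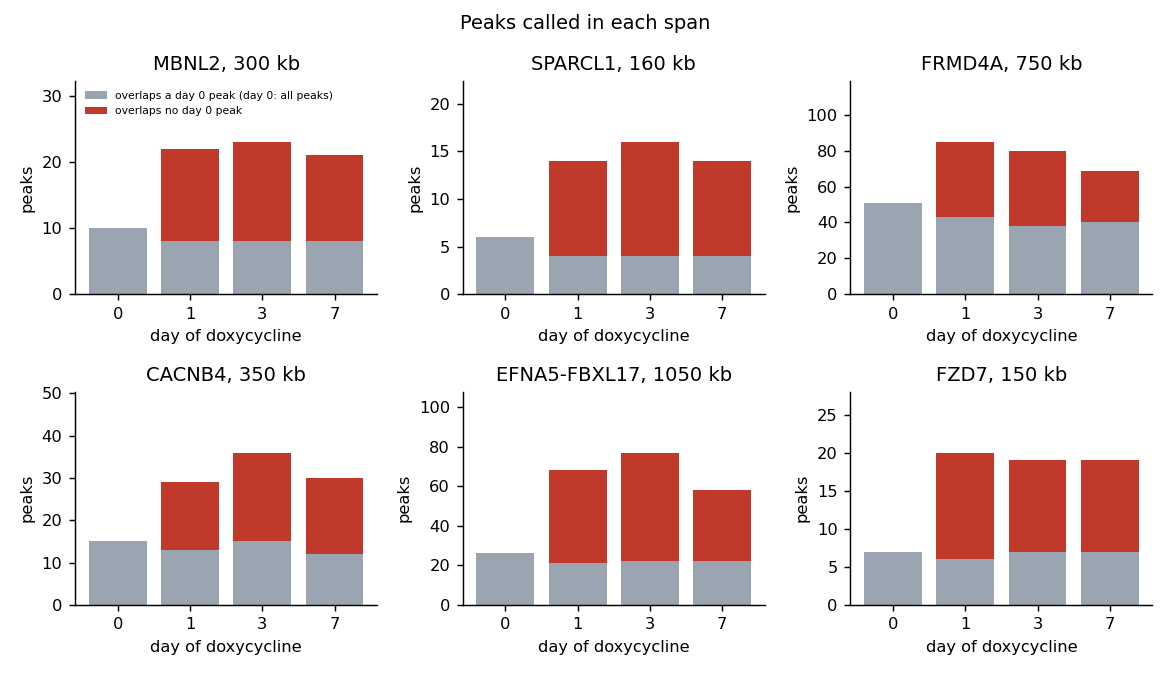
Peaks called in each span (vertical axis, number of peaks) by day of doxycycline (horizontal axis). Grey marks peaks that overlapped a day 0 peak (all peaks on day 0) and red those that overlapped none; each panel has its own vertical scale, and in the EFNA5-FBXL17 panel the bars reach 77 peaks on day 3 from 26 without doxycycline.

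On day 1, 143 of the 238 peaks overlapped no day 0 peak, where 36.6% of all day 1 peaks did so. On day 3 the number was 157 of 251, against 41.8% of the whole list, and on day 7 it was 118 of 211, against 35.6%. Each gained region adds such a peak on every induced day and the rule counted gained regions, so nothing is read from these excesses. Each of the 6 spans had more peaks on every induced day than on day 0. The EFNA5-FBXL17 span had the highest ratios of covered length, 2.66 on day 1 and 2.98 on day 3, and FRMD4A had the lowest, 1.72 and 1.67. On day 7 FZD7 had 2.32 times its day 0 length, above the 2.29 of EFNA5-FBXL17.

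Few day 0 peaks of the spans were lost. Of the 115 day 0 peaks, 18 overlapped no day 1 peak, where 13% of all day 0 peaks did so, 19 no day 3 peak, against 14.6%, and 22 no day 7 peak, against 17.5%. The members' shares were 15.7%, 16.5% and 19.1%, near those backgrounds. All 7 day 0 peaks of the FZD7 span overlapped peaks on days 3 and 7, and all 15 of the CACNB4 span overlapped peaks on day 3. The 11 regions seen on day 0 alone were weak, with 22 to 52 summit reads and the authors' fold between 2.19 and 3.64. By the rule for named regions, 1 region with a day 0 fold of at least 4 had no day 7 peak: chr2:152983180-152983636 in the CACNB4 span, with 29 reads on day 0, 35 on day 3 and no peak on days 1 and 7. The smallest day 0 summit of any peak in the spans held 20 reads, so both of its summits were low.

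Of the 306 regions, 86 were gained, meaning a peak on each of days 1, 3 and 7 and none on day 0, where 13.1% of all regions in the genome did so. The rule used this count, so nothing is read from the excess. A gained region is one where no peak was called on day 0, which is not the same as closed chromatin. The gained regions numbered 28 of 87 in the EFNA5-FBXL17 span, 8 of 25 in FZD7, 14 of 40 in CACNB4, 18 of 109 in FRMD4A, 9 of 18 in SPARCL1 and 9 of 27 in MBNL2. Counting only peaks whose authors' fold was at least 4, day 0 peaks included, the numbers were 17, 3, 5, 12, 4 and 1 in the same order. The steepest reduction was in MBNL2. Because weaker day 0 peaks were dropped too, a region with such a peak could count as gained, and the numbers are not all drawn from the 86. In CACNB4 this applied to chr2:152931812-152932795, with a fold of 3.40 on day 0 and 7.67, 7.91 and 7.25 on the induced days. With peaks of -log10 q of at least 5, applied in the same way, FRMD4A held 11. Per 100 kb of span, SPARCL1 had 5.63 gained regions, FZD7 5.33 and CACNB4 4.0, and FRMD4A had 2.4 although it had the second largest number. The FRMD4A span instead had 4.67 regions per 100 kb with a peak on every day, against 1.71 in EFNA5-FBXL17.

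Of the 195 regions of the spans without a day 0 peak, 138 (70.8%) already had a peak on day 1, 44 (22.6%) first had one on day 3 and 13 (6.67%) on day 7. Over the genome the shares were 57.7%, 30.9% and 11.4%. Gained regions have a day 1 peak by definition and made up 86 of the 138, so nothing is read from the higher share. Without them, 52 of 109 regions (47.7%) were first seen on day 1, against 19890 of 48446 (41.1%) over the genome. In the SPARCL1 and EFNA5-FBXL17 spans no region was first seen on day 7, and in CACNB4 4 of 26 were. Regions seen on a single induced day numbered 70, those on days 1 and 3 alone 24, those on days 3 and 7 alone 11, and those on days 1 and 7 alone 4.

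When gained regions were chained across gaps of up to 10000 bp, each span had 1 largest group. With that gap, 2 groups in the genome held 7 gained regions, and both are in the spans (MBNL2 and EFNA5-FBXL17). Of the 7 groups of 6 regions, 4 are in the spans and 3 lie outside, at chr1:211775405-211813609, chr5:148766678-148796937 and chr17:34206806-34238610. All 12 groups of 5 regions lie outside the spans. The 6 groups covered 15.7 to 36.1 kb and held 38 of the 86 gained regions. The other 48 lay outside them, up to 100184 bp from the nearest other gained region at chr10:13908196-13908765 in the FRMD4A span. With a gap of 5000 bp the largest group held 2 gained regions in CACNB4 and in FZD7, 3 in MBNL2 and in FRMD4A, 5 in SPARCL1 and 6 in EFNA5-FBXL17, so the sizes of 4 of the 6 groups changed by over 1.5 times with the gap.

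**Figure D2:**
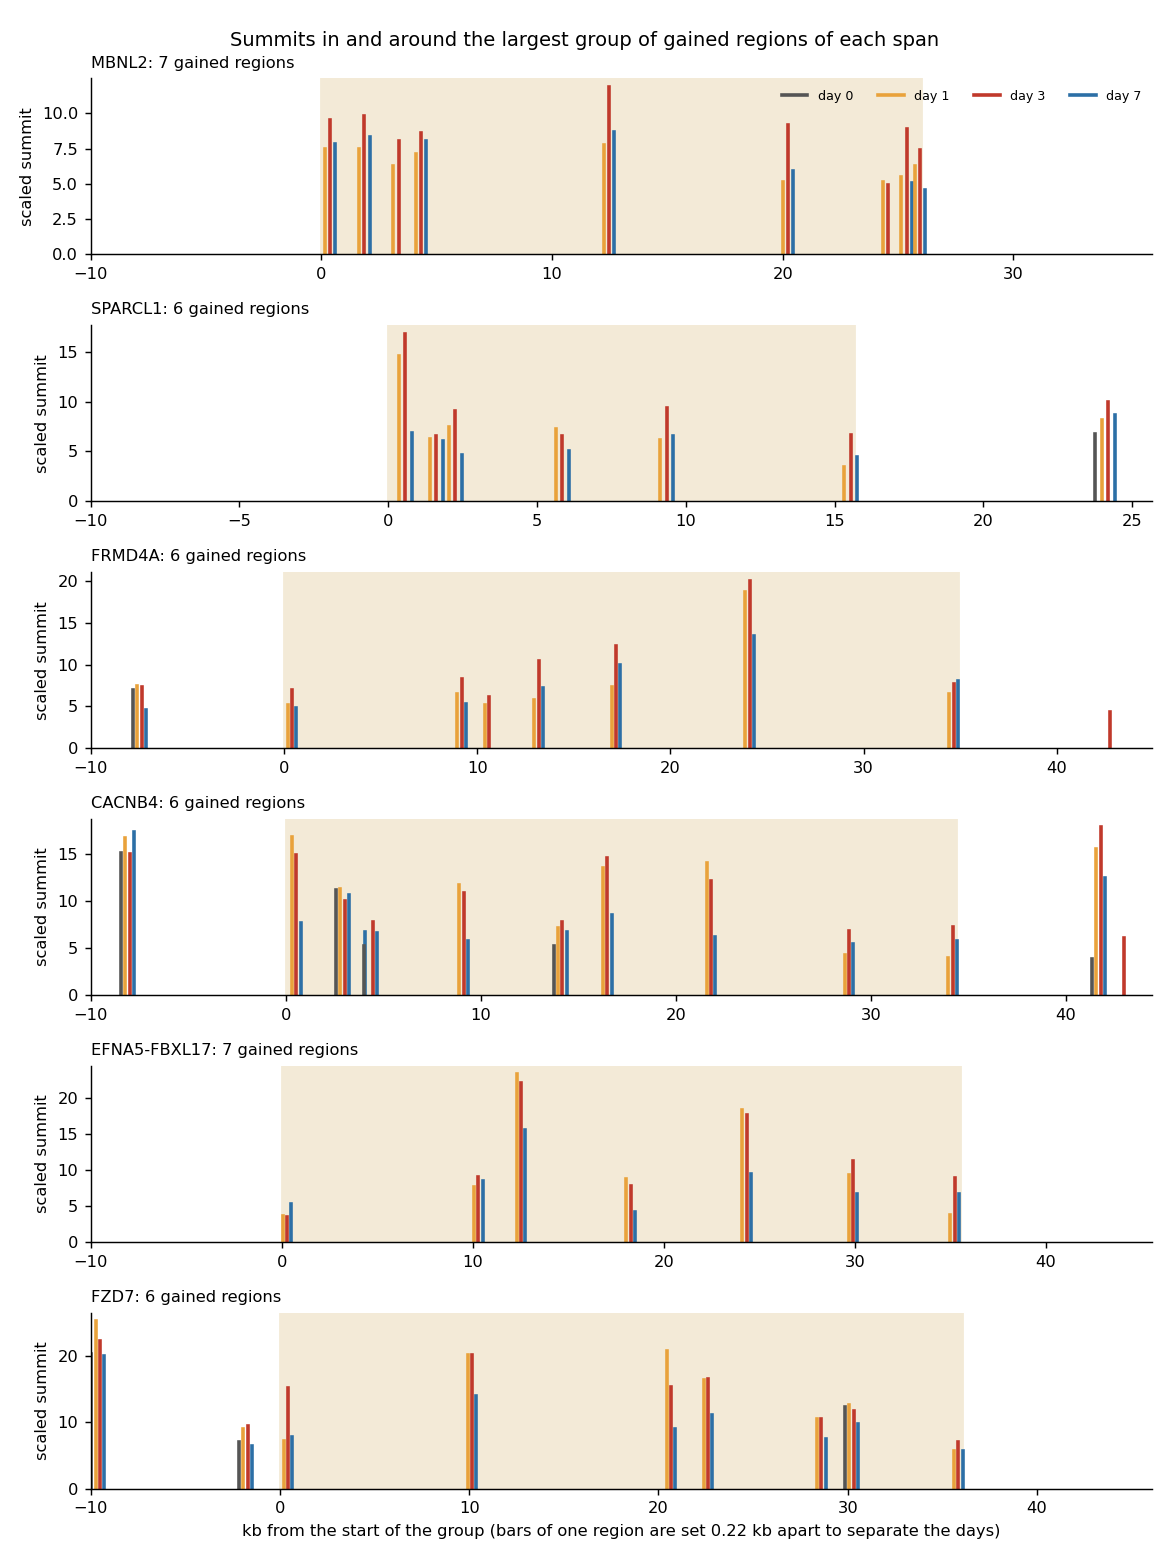
Scaled summit (vertical axis, summit reads over the genome-wide background) against distance in kb from the start of the largest group of gained regions in each span (horizontal axis). Bars are regions coloured by day and shading marks the group; grey day 0 bars are absent from the shaded stretch of MBNL2, SPARCL1, FRMD4A and EFNA5-FBXL17 and present in that of CACNB4 and FZD7.

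The EFNA5-FBXL17 group spanned 35.6 kb (chr5:107132522-107168111) with 7 gained regions and no day 0 peak, and its regions lay 22803 to 58087 bp from the nearest one. The tallest, chr5:107144146-107145757, had 141, 149 and 95 summit reads on days 1, 3 and 7. Next came chr5:107156029-107157485 with 111, 119 and 58 reads. Neither differed between days 1 and 3 beyond counting error and both were lower on day 7, with day 7 over day 3 ratios of 0.70 (0.54 to 0.92) and 0.54 (0.39 to 0.74). The middle of the group, chr5:107150179-107151188 with 53, 52 and 25 reads and chr5:107161947-107162708 with 56, 76 and 41, was also lower on day 7 than on day 3 beyond counting error. The flanking region chr5:107167167-107168111 went another way, with 23, 60 and 41 reads, a day 3 over day 1 ratio of 2.34 (1.43 to 3.97). At the other edge chr5:107132522-107132827 had 22, 23 and 32 reads and chr5:107142487-107142923 had 46, 61 and 52, and neither differed between days beyond counting error. The 7 summits together were 1.07 times as high on day 3 as on day 1 (0.946 to 1.22) and 0.702 times as high on day 7 as on day 3 (0.612 to 0.806).

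The rest of the EFNA5-FBXL17 span held 21 further gained regions, and 5 of the 28 in all had a day 3 over day 1 interval above 1. Among the 21 outside the group, the largest day 3 over day 1 ratios were at chr5:107304551-107305503, with 25, 59 and 57 reads, and chr5:107079137-107079805, with 39, 89 and 58. Their day 3 over day 1 ratios were 2.12 (1.31 to 3.53) and 2.05 (1.39 to 3.07), and at the first the day 7 summit was as high as that of day 3. These 2 regions, chosen after their values were seen, lay 33340 and 69480 bp from any day 0 peak.

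The FZD7 group, in the span of the Wnt receptor gene, was the longest at 36.1 kb (chr2:202938995-202975094). It held 6 gained regions and 1 region with a peak on every day, chr2:202968976-202969403, chosen after its values were seen, with 78, 76, 79 and 59 reads on days 0, 1, 3 and 7. The gained regions were tall, with a median scaled summit of 13.4 on day 1 and 15.2 on day 3, against 6.62 and 8.03 for all gained regions of the genome. By the authors' fold the 8 gained regions of the span did not stand out, with medians of 3.77 and 4.10 on those days, against 3.83 and 4.27. The tallest on day 3, chr2:202948526-202949544, had 121, 135 and 85 reads on days 1, 3 and 7. Its neighbours chr2:202959113-202959991 and chr2:202961169-202961854 had 125, 103 and 55 reads and 99, 111 and 68 reads. The first of these was the only gained region of the 86 whose day 3 over day 1 interval lay below 1, with a ratio of 0.74 (0.56 to 0.97). The opposite was seen at the edge of the group, where chr2:202938995-202939618 had 43, 102 and 47 reads, a transient height with a day 3 over day 1 ratio of 2.13 (1.48 to 3.12) and a day 7 over day 3 ratio of 0.51 (0.35 to 0.72). The 2 others, chr2:202967202-202967786 with 63, 70 and 46 reads and chr2:202974366-202975094 with 34, 47 and 35, had no ratio between neighbouring days outside counting error. Over the group, the day 7 summits were 0.652 times those of day 3 (0.568 to 0.748).

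The CACNB4 group spanned 34.4 kb (chr2:152890632-152925077) in the span of the calcium channel subunit gene and held 3 regions that already had a day 0 peak. Its gained regions are described in 2 sets, divided after their values were seen. Of the 6, 4 were tall on day 1 and lower by day 7, with day 7 over day 3 intervals below 1: chr2:152890632-152891512 with 102, 100 and 47 reads, chr2:152899242-152900050 with 71, 73 and 35, chr2:152906684-152907338 with 82, 98 and 52, and chr2:152911808-152912838 with 85, 82 and 38. Their day 7 over day 3 ratios were 0.52, 0.53, 0.58 and 0.51. The 2 regions at the far end were low on day 1 and higher on day 3, chr2:152919087-152919730 with 26, 46 and 33 reads and chr2:152924354-152925077 with 24, 49 and 35. In the second the day 3 over day 1 ratio was 1.83 (1.10 to 3.13), while in the first, 1.59 (0.96 to 2.68), the interval included 1. The group as a whole had the lowest day 7 over day 3 ratio of the 6, 0.591 (0.503 to 0.692).

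Beside these, the region chr2:152893285-152893814 had 71, 68, 67 and 65 summit reads on days 0, 1, 3 and 7 and did not differ between days beyond counting error. Its authors' fold was 5.92 on day 0 and 3.20, 2.99 and 4.09 on the induced days. The local background of the peak caller, measured over a window of 10000 bp that takes in the peaks nearby, was 11.2 reads on day 0 and 20.5, 21.8 and 15.1 afterwards. The summit was thus nearly level while the divisor of the fold was larger after induction. Another region of the group, chr2:152904472-152904941, had 33, 43, 52 and 41 reads, and its summit was 1.37, 1.49 and 1.29 times the day 0 height on days 1, 3 and 7, with intervals that included 1. Its fold was lower after induction, 2.93, 2.98 and 3.62 against 4.44. Both regions were chosen after their values were seen. Elsewhere in the span chr2:152779662-152780246, chosen after its values were seen, had 20, 53 and 52 reads on days 1, 3 and 7, the highest day 3 over day 1 ratio of all 86 gained regions, 2.38 (1.40 to 4.21).

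The FRMD4A group spanned 34.9 kb (chr10:14082168-14117111) with 6 gained regions and no day 0 peak. One tall region, chr10:14105639-14106676, had 113, 135 and 82 reads on days 1, 3 and 7, a day 7 over day 3 ratio of 0.67 (0.50 to 0.89). The other 5 were between 31 and 44 reads on day 1. Of these, chr10:14094948-14095530 with 35, 70 and 44 reads and chr10:14098920-14099558 with 44, 82 and 61, were higher on day 3 than on day 1 by 1.80 (1.18 to 2.78) and 1.67 times (1.15 to 2.47). The remaining regions had 31, 47 and 29 reads (chr10:14082168-14082768), 39, 56 and 32 (chr10:14090981-14091531) and 39, 52 and 49 (chr10:14116314-14117111). All 6 were higher on day 3 than on day 1, and the summed ratio was 1.32 (1.14 to 1.53). The 12 gained regions of the span outside the group had 26 to 81 reads on day 1 and lay 170 to 26627 bp from the nearest day 0 peak.

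SPARCL1, whose product is deposited in the extracellular matrix, had the densest group: 6 gained regions in 15.7 kb (chr4:88441190-88456870) with no region of any other kind between them. The first, chr4:88441190-88442121, was the tallest, with 88, 113 and 42 reads on days 1, 3 and 7. Its day 7 over day 3 ratio, 0.41 (0.28 to 0.59), was the lowest of the 86 gained regions. The next regions had 38, 44 and 37 reads (chr4:88442510-88442871), 45, 61 and 28 (chr4:88443101-88443572) and 44, 44 and 31 (chr4:88446753-88447099). Those at the far edge had low day 1 summits, 37, 63 and 40 reads at chr4:88450184-88450690 and 21, 45 and 27 at chr4:88456367-88456870, and in the latter the day 3 over day 1 ratio was 1.93 (1.12 to 3.40). Together the 6 summits were 1.22 times as high on day 3 as on day 1 (1.04 to 1.43) and 0.611 times as high on day 7 as on day 3 (0.512 to 0.726). Outside the group, chr4:88398264-88399156 with 68, 88 and 50 reads and chr4:88423583-88424497 with 71, 81 and 43, both chosen after their values were seen, were also lower on day 7 than on day 3 beyond counting error.

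The MBNL2 group spanned 26.0 kb (chr13:97907085-97933117), with 7 gained regions of even height and no day 0 peak within 23072 bp of any of them. Summits held 31 to 47 reads on day 1 and 50 to 80 on day 3. Each of the 7 was higher on day 3 than on day 1 and lower again on day 7, and the group had the highest day 3 over day 1 ratio of the 6, 1.40 (1.204 to 1.63). The broadest, chr13:97918625-97920302, had 47, 80 and 53 reads, with a day 3 over day 1 ratio of 1.53 (1.05 to 2.24). The regions on the far side, chr13:97927024-97927374 with 31, 62 and 36 reads and chr13:97932126-97932563 with 33, 60 and 31, had ratios of 1.80 (1.15 to 2.86) and 1.63 (1.05 to 2.58). Those on the near side had 45, 64 and 48 reads (chr13:97907085-97907579), 45, 66 and 51 (chr13:97908611-97909079) and 43, 58 and 49 (chr13:97911098-97911466), and the last region had 38, 50 and 28 (chr13:97932742-97933117). For these 4 the day 3 over day 1 intervals included 1. The day 7 summits of the group were 0.742 times those of day 3 (0.638 to 0.861) and 1.04 times those of day 1 (0.880 to 1.23), so days 1 and 7 differed by less than counting error in this group.

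The tallest gained region of the MBNL2 span lay outside the group, at chr13:97960096-97961059, with 118, 151 and 85 reads. It and chr13:98091293-98092221, chosen after its values were seen, with 91, 103 and 49 reads, stood above the 7 regions of the group on day 1 and on day 3. Their day 7 over day 3 ratios were 0.62 (0.47 to 0.81) and 0.52 (0.37 to 0.74).

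Apart from the peak call needed on each induced day, heights of the gained regions on those days were not used to choose the spans. Over all 86, the median scaled summit on days 1, 3 and 7 was 7.03, 8.995 and 6.72, against 6.62, 8.03 and 6.39 for the 19074 gained regions of the genome. The summit was highest on day 3 in 54 of the 86, where 58.5% of all gained regions were highest on that day, on day 1 in 22, against 25.8%, and on day 7 in 10, against 15.7%. All 9 gained regions of the MBNL2 span and 8 of 9 in SPARCL1 were highest on day 3. In CACNB4, 6 of 14 were highest on day 1 and 5 on day 3. These are counts of which day was highest and do not say by how much.

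**Figure D3:**
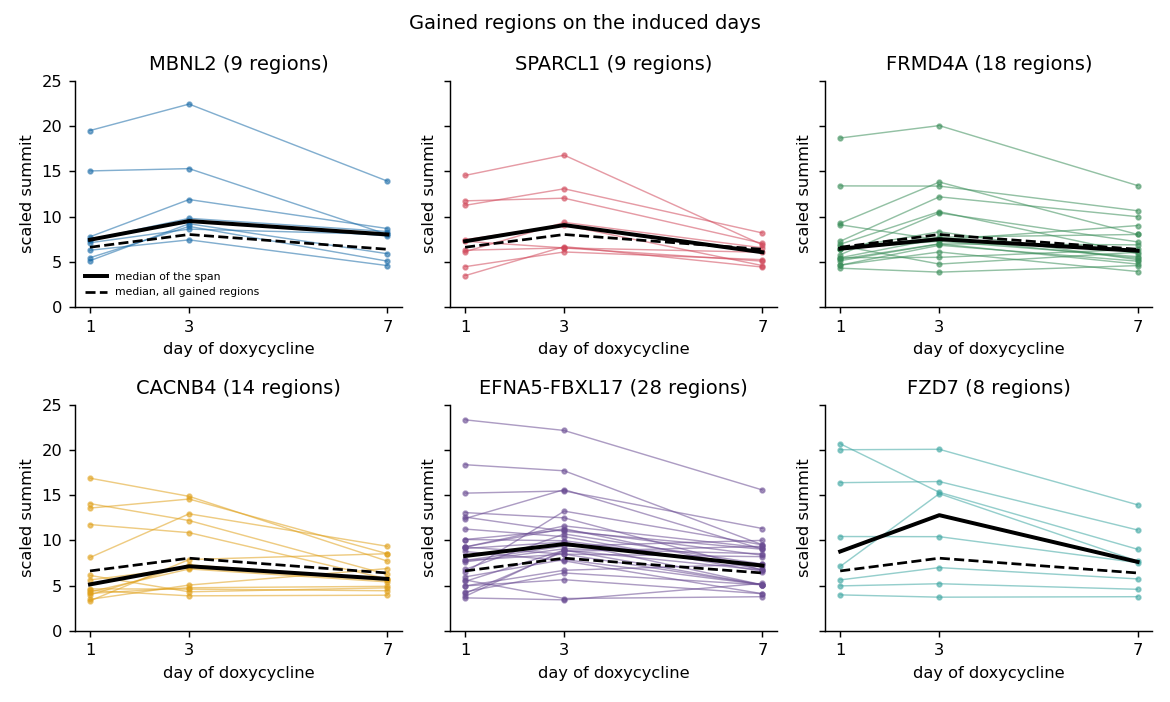
Scaled summit (vertical axis, summit reads over the genome-wide background) of each gained region on days 1, 3 and 7 of doxycycline (horizontal axis), 1 panel per span. Thin lines are regions, the thick line their median and the dashed line the median over all gained regions of the genome, which goes from 6.62 to 8.03 to 6.39; the FZD7 median reaches 12.8 on day 3.

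From day 1 to day 3 the ratios in the spans were close to those of the genome. Of the 86 regions, 62 were higher on day 3, where 69.3% of all gained regions were, and in 18 the counting interval lay above 1, against 16.2%. The interval lay below 1 in 1, against 0.744%, and 5 were at least 2-fold higher on day 3, against 3.27%. The summed ratio was 1.16 in the spans (1.11 to 1.204) and 1.16 in the genome (1.15 to 1.16). By span it was highest in MBNL2, 1.27 (1.13 to 1.43), and lowest in FZD7, 1.05 (0.932 to 1.18), and the intervals of neighbouring spans in that order overlapped.

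From day 3 to day 7 the summits of the spans were lower by more than those of all gained regions. The summit was lower on day 7 in 70 of the 86, where 77.3% of all gained regions were lower, and the counting interval lay below 1 in 31, where 21.6% did. Intervals are narrower for taller summits, and the day 3 median scaled summit was 8.995 in the spans against 8.03 over the genome. The part of this in the count of intervals was not tested. No region had an interval above 1, against 0.43%, and 1 was at least 2-fold lower, against 2.79%. The summed ratio was 0.722 (0.693 to 0.753) in the spans and 0.802 (0.799 to 0.804) over the genome. It was 0.627 (0.546 to 0.719) in SPARCL1, 0.679 (0.597 to 0.772) in FZD7, 0.683 (0.604 to 0.772) in MBNL2, 0.730 (0.679 to 0.784) in EFNA5-FBXL17, 0.749 (0.670 to 0.838) in CACNB4 and 0.790 (0.719 to 0.867) in FRMD4A. In CACNB4 and FRMD4A the interval included the 0.802 of the genome. All 9 gained regions of MBNL2 and all 9 of SPARCL1 were lower. The intervals cover counting error in 1 list per day, and the difference from the genome has no test over replicates. This step and the one from day 1 share the day 3 list, so a high day 3 list would raise one ratio and lower the other.

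The local background moved with these heights. Its median ratio over the 86 regions was 1.10 from day 1 to day 3 and 0.822 from day 3 to day 7, against 1.03 and 0.941 over all gained regions, and it counts the reads of the peaks themselves. Measured by the authors' fold, which divides by it, the day 7 over day 3 ratio was 0.880 and the day 3 over day 1 ratio was 1.07. The median fold was 4.53 on day 3 and 3.94 on day 7 in the spans, and 4.27 and 3.77 over all gained regions. By the fold, the spans thus showed little decline beyond that of the genome. How far signal between the peaks took part was not tested.

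**Figure D4:**
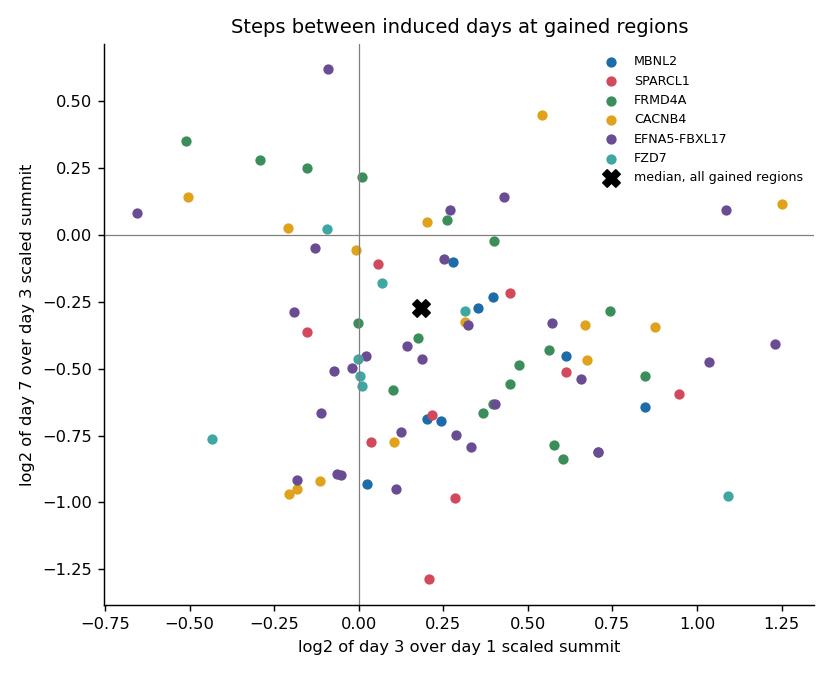
Log2 ratio of scaled summits from day 3 to day 7 (vertical axis) against that from day 1 to day 3 (horizontal axis) for the 86 gained regions, coloured by span. The cross is the median of all gained regions of the genome (0.18 and -0.27); 70 of the 86 points lie below 0 on the vertical axis. The axes share the day 3 value.

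Regions with a peak on every day numbered 81 in the spans: 35 in FRMD4A, 18 in EFNA5-FBXL17, 11 in CACNB4, 8 in MBNL2, 6 in FZD7 and 3 in SPARCL1. After 1 day of doxycycline, 15 of the 81 were at least 2-fold higher than on day 0, where 3.89% of the 60786 such regions of the genome were. The number was 11 after 3 days, against 4.02%, and 4 after 7 days, against 2.22%. None was at least 2-fold lower on any induced day, against 0.00987%, 0.0707% and 0.0625%. The counting interval lay above 1 in 22, 21 and 12 of the 81 on days 1, 3 and 7, where 10%, 8.71% and 5.36% did, and below 1 in 0, 1 and 0, against 0.434%, 3.02% and 1.74%. The summed ratio to day 0 was 1.30 (1.26 to 1.35), 1.19 (1.15 to 1.23) and 1.10 (1.06 to 1.14) on the induced days in turn, and 1.09, 0.982 and 0.986 over the genome. These regions started lower, with a median day 0 scaled summit of 7.72 against 11.04 over the genome, and the part of this in the counts was not tested. The spans were chosen for gains against day 0 at neighbouring regions. Any excess over the genome in these 81 is therefore not independent of that choice, and nothing is read from it.

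The calls on day 1 depended on the scaling. With lists scaled by the median summit of regions present on every day, which shifts day 1 by 0.21 on the log2 scale and days 3 and 7 by 0.07 and 0.04, the numbers were 9, 11 and 3, against 2.71%, 3.59% and 2.07% of such regions in the genome. By the authors' fold they were 2, 1 and 1, against 1.01%, 1.06% and 0.454% of such regions in the genome. In 16 of the 81 the day 3 summit was higher than that of day 0 while the fold was lower, where 6.06% of such regions showed this. The local background of the 81 was 1.10 times its day 0 level on day 3 as a median, and 1.50 times in the FZD7 span, against 0.971 over the genome.

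**Figure D5:**
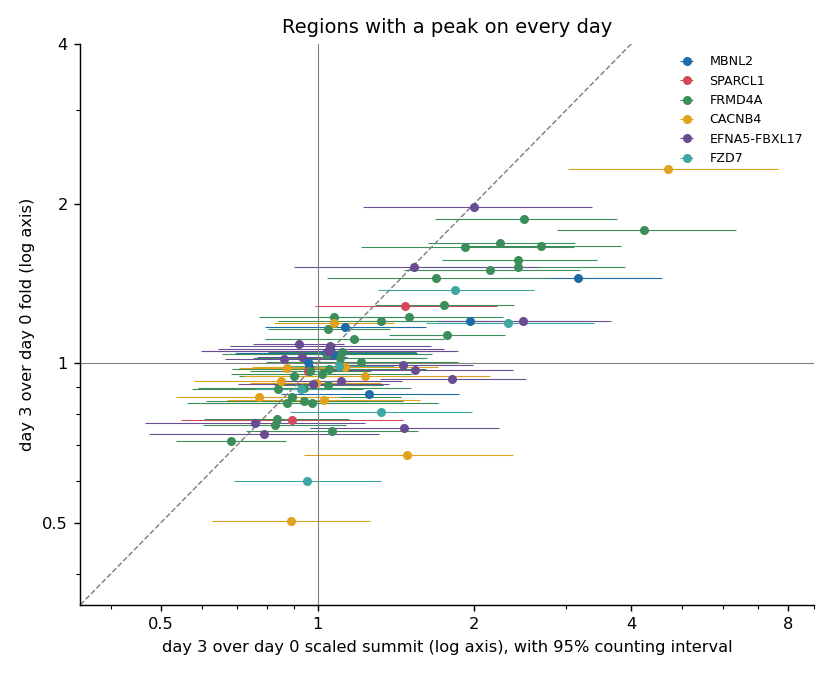
Day 3 over day 0 ratio of the authors' fold (vertical axis, log scale) against that of the scaled summit (horizontal axis, log scale, bars are 95% counting intervals) for the 81 regions with a peak on every day, coloured by span. Points to the right of 1 and below 1 had a higher summit and a lower fold (16 of 81), and the dashed line marks equal ratios.

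In 5 of the 6 spans the tallest day 0 region did not differ between days 0 and 3 beyond counting error. In MBNL2 the tall region chr13:98084944-98087164 had 234, 232, 238 and 228 reads on days 0, 1, 3 and 7, and chr13:97980047-97981034 had 42, 125, 141 and 92. The first differed between days by less than counting error and the second was 3.17 times as high on day 3 as on day 0 (2.23 to 4.58). In CACNB4, chr2:152684149-152685553 had 188, 178, 174 and 184 reads and chr2:152931812-152932795 had 24, 94, 120 and 76. The latter had the largest ratio of the 81, 4.72 (3.02 to 7.65), and its authors' fold was also over 2-fold higher, at 3.40 on day 0 and 7.91 on day 3.

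FRMD4A, which held 35 of the 81 regions, had 8 of the 15 doubled on day 1. Scaled by the median summit of regions present on every day it had 5, and by the fold 1. Its region with the largest ratio, chr10:13881519-13882569, had 33, 125, 148 and 105 reads, 4.23 times as high on day 3 as on day 0 (2.88 to 6.37). On the other side, its tallest day 0 region, chr10:14226750-14229098, had 166, 141, 120 and 137 reads and was the only one of the 81 with a day 3 interval below 1, at 0.68 (0.53 to 0.87). A 2-fold higher summit on all 3 induced days was seen in 3 of the 81, against 1.9% over the genome, namely the regions with the largest ratio in MBNL2, CACNB4 and FRMD4A.

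In EFNA5-FBXL17 the region chr5:107716157-107718600 had 204, 207, 202 and 189 reads, and chr5:106892669-106893379 had 40, 88, 105 and 67, a day 3 ratio of 2.48 (1.70 to 3.66). In FZD7 the region chr2:202897463-202899419 had 198, 185, 195 and 181 reads, and chr2:202915957-202916987 had 43, 121, 106 and 54. The day 3 ratio of the latter was 2.32 (1.62 to 3.40) and its day 7 ratio 1.31 (0.86 to 2.00), so by day 7 it could not be told from day 0 at this depth. SPARCL1 had no region 2-fold higher. Its chr4:88343236-88344352 had 171, 177, 174 and 165 reads, and chr4:88464923-88465626, with 43, 49, 67 and 53, had a ratio of 1.47 (0.99 to 2.21) on day 3.

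Gained regions lay at different distances from the chromatin that was accessible on day 0. The median distance to the nearest day 0 peak was 30773 bp in EFNA5-FBXL17 and 27085 bp in MBNL2, 13816 bp in SPARCL1, 12749 bp in FRMD4A, 8053 bp in FZD7 and 7160 bp in CACNB4. Over the 86 it ranged from 170 to 69480 bp, with a median of 15052 bp. The regions themselves had a median length of 648 bp, against 630 bp for all gained regions, and those of MBNL2 were the shortest at 469 bp and those of EFNA5-FBXL17 the longest at 781 bp.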

How the data were processed

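Per the submitters' processing notes, the tools were Bowtie2, deepTools and MACS2 2.1.1.20160309 and the build hg19. For read filters, a transposase offset and pooling of replicates, the settings were not given in the sources used here. A deposited table joins 4 peak lists. Per peak it gives the authors' score (not used here), the authors' fold (a ratio of summit to local background), the deposited p-value and q-value, each as -log10, and the deposited summit offset.

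Summit reads were recovered as the whole number that fits fold and -log10 p together under a Poisson model. All 411408 peaks fitted within 0.005 in -log10 p, and the recovery was tested on simulated data. Local backgrounds other than the genome level were whole reads over 10000 bp with reads of 200 bp, within 0.1 read, in 100% of peaks. The genome-wide background of a list is the value its peaks share most often, 18.6% to 21.1% of a list. Single peaks of about 20 to 50 reads carry wide counting error, and intervals are 95%.

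Named regions were those of the largest group per span, the region present on every day with the highest day 0 summit and the one with the largest day 3 ratio, the highest gained region on day 3, and any with a day 0 fold of at least 4 and no day 7 peak. Members, rules and lists were chosen with earlier results of these data known. Alternatives were stricter q or fold, wider merging, reciprocal overlap, another scaling, the fold in place of the summit, and gaps of 5000 and 20000 bp in groups. Python 3.11.15, NumPy 2.4.6, pandas 2.3.3, SciPy 1.17.1 and matplotlib 3.10.9 were used. Coordinates are 1-based. The neighbouring genes of CACNB4 are not reported here.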

Additional observations from a re-analysis of the deposited data

How the results depend on the processing

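No paired analysis was possible because the deposited lists hold 1 list per day and no value per replicate, and for the same reason no replicate could be left out. The number of gained regions in the spans went from 86 to 42 with peaks of fold at least 4, and was 70 with -log10 q of at least 5. Both cutoffs also dropped weaker day 0 peaks, so the 42 and the 70 can include regions that had a day 0 peak in the full lists. The summed day 7 over day 3 ratio of gained regions was 0.880 by the deposited fold instead of 0.722. The day 3 over day 1 ratio was 1.27 with scaling by the median summit of regions present on every day and 1.07 by the fold, instead of 1.16. Among the 81 regions present on every day, those 2-fold higher on day 1 went from 15 to 9 under that scaling and to 2 by the fold; by the fold those on day 3 went from 11 to 1 and those on day 7 from 4 to 1. With a gap of 5000 bp the largest groups held 21 regions instead of 38. Direction was checked for the summed ratios, and in each span for the tallest day 0 region, that with the largest day 3 ratio and the tallest gained region. Among these, no ratio whose counting interval excluded 1 changed direction. By the fold, 2 day 3 over day 0 ratios near 1 did, from 0.96 to 1.003 at chr13:98084944-98087164 and from 0.93 to 1.03 at chr5:107716157-107718600. Some regions outside this check did change: at chr5:106723689-106724625 the day 3 over day 0 summit ratio was 1.81 (1.32 to 2.51) and the fold ratio 0.933. The other 13 alternatives to the main results moved a count by less than 1.5 times or a ratio by less than its counting interval, new peaks per day among them; for single spans 88 did so and 44 did not. Depth limits single regions: 45 reads on day 1 against 64 on day 3 at chr13:97907085-97907579 gave 1.28 (0.86 to 1.91).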
